A study of Rattus norvegicus with 8 samples.

Results

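The miRNAs described here are the products of miR-451, miR-144 and miR-486, which are used as a gauge of red cell content in tissue and serum. They were chosen by name, as every rat feature of the array whose name begins with miR-451, miR-144 or miR-486. This gave 5 of 758 miRNAs, namely miR-451-5p, miR-451-3p, miR-144-3p, miR-144-5p and miR-486, the last of which the array lists without an arm. Tissue came from the prostatic urethra of Sprague Dawley rats, all males aged 10 to 12 months, and was collected on day 5 after the operation. The TULP rats modelled transurethral laser prostatectomy: a thulium laser, led in through an incised bladder, burned away the urethral epithelium and left a healing wound. The sham rats received only a midline incision of the abdomen, so they control for neither the bladder incision nor the laser. Each group held 4 rats with 1 array each, and the groups rest on the sample titles, since the descriptions of the TULP samples name sham surgery as the operation.

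miRNAs are short RNAs that pair through their seed, bases 2 to 8, with messenger RNAs and lower their output. miR-144 and miR-451 are cut from 1 transcript that the erythroid factor GATA1 switches on as red cells mature, and miR-451 is matured by Argonaute 2 without Dicer. Mature red cells have no nucleus but keep their miRNAs, so bleeding or trapped blood carries miR-451-5p into a tissue sample. miR-486 is abundant in red cells too, and it is also made in striated muscle, where it lies within the Ank1 gene. It is therefore less particular to blood than miR-451-5p.

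The mature RNAs of the miR-144 and miR-451 genes are shown because the detected and the undetected members come from the same pair of neighbouring hairpins. They were taken from RefSeq (build GRCr8), with the seed in capitals, and 4 of the 5 members had an entry there.
miR-451-5p: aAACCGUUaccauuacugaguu
miR-451-3p: aUGGUAAUgguucucuugcugcu
miR-144-3p: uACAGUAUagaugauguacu
miR-144-5p: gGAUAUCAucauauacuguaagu

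The 4 seeds differed from each other, and each was held by 1 of the 724 rat mature miRNAs in the RefSeq table. miR-451-5p lay at chr10:63459585-63459606 and miR-451-3p at chr10:63459612-63459634, on the plus strand. miR-144-5p lay at chr10:63459409-63459431 and miR-144-3p at chr10:63459446-63459465 on the same strand. The hairpins are printed with both arms in capitals, to show how the arms of miR-451 sit closer together than those of miR-144.
Mir144 hairpin: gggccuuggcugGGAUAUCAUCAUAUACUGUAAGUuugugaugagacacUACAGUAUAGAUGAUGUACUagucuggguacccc
Mir451a hairpin: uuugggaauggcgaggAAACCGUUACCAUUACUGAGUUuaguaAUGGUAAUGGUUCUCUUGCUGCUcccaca

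The Mir144 hairpin had 83 bases with 14 between its arms, and the Mir451a hairpin had 72 bases with 5 between its arms. The hairpins were 89 bases apart, and the end of Mir451a was 133 bases from the start of the annotated gene Eral1. No other annotated gene overlapped the pair.

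Each member was measured by 2 probes that differ by 1 base in length, with 8 spots per probe on each array. The probes of the detected members are shown, since the call for each miRNA depends on them, and the base added in the longer probe is in capitals.
miR-451-5p, shorter probe: aactcagtaatggtaacggt
miR-451-5p, longer probe: aactcagtaatggtaacggtT
miR-486, shorter probe: ctcggggcagctc
miR-486, longer probe: ctcggggcagctcA

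The complement of the miR-451-5p probes was found in full in 1 of the 724 RefSeq mature miRNAs, miR-451-5p itself. The longer one pairs with bases 2 to 22 of it. The array files, which use build rn4, place it at chr10:64129536-64129555, a span 1 base short of the probe. The miR-486 probes were shorter, with 13 and 14 bases, and 76.9% and 71.4% of those bases were G or C. No RefSeq mature miRNA of the table held their complement, and the array files gave them no genome position.

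The files call a miRNA detected when the total signal of at least 1 probe exceeds 3 times its error. miR-486 was detected on 8 of 8 arrays and miR-451-5p on 7 of 8. miR-451-3p, miR-144-3p and miR-144-5p were detected on 0 of 8 arrays, so only 1 product of the miR-144 and miR-451 genes was called detected in this tissue. For miR-451-5p the missing array was TULP replicate 2, and detection on 4 of 4 sham against 3 of 4 TULP arrays gave p = 1 (Fisher's exact test, two-sided). The whole arrays detected 146 to 156 miRNAs in the sham group and 136 to 151 in the TULP group.

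**Figure D1:**
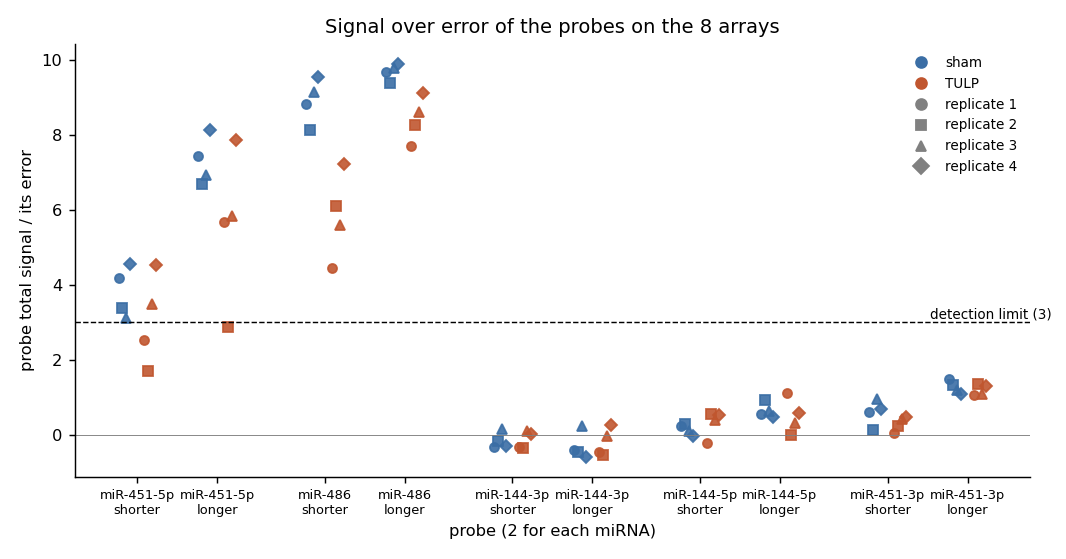
Total signal of each probe divided by its error (y axis, no unit) for the 5 miRNAs, with 2 probes per miRNA on the x axis and 1 point per array. The dashed line marks the detection limit of 3, which both miR-486 probes passed on every array and which no probe of miR-144-3p, miR-144-5p or miR-451-3p reached.

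rno-miR-144-3p (rat miR-144-3p), the arm of miR-144 usually measured in red cells, gave probe signals from -0.739 to 0.305 intensity units with errors of 1.12 to 1.41. Of its 16 probe readings, 11 were below 0, and the highest ratio of signal to error was 0.242. miR-144-5p, the other arm, ranged from -0.330 to 1.58 with a highest ratio of 1.11. miR-451-3p, the partner arm of miR-451-5p, ranged from 0.0524 to 1.77 with a highest ratio of 1.48. For each of these 3 miRNAs, 0 of 128 spots were well above background. A detectable miR-144-3p probe would have needed a signal of 3.37 to 4.24, or 0.00992% to 0.0238% of the summed signal of detected miRNAs on its array. Below that limit its level was not measurable here, and no difference between the groups could be given for these 3 miRNAs.

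rno-miR-451-5p (rat miR-451-5p) lay close to the detection limit in its shorter probe and in TULP replicate 2. On sham arrays the ratio of signal to error was 3.11 to 4.55 for the shorter probe and 6.67 to 8.12 for the longer. In TULP replicates 1, 3 and 4 the longer probe reached 5.66, 5.83 and 7.85. The signal of miR-451-5p, summed over detected probes and not yet normalized, was 17.7, 16.4, 14.8 and 23.8 in sham replicates 1 to 4. In the TULP group it was 9.76, 14.5 and 22.4 in replicates 1, 3 and 4, and it was not detected in replicate 2. The groups overlapped, and the lowest readings came from TULP replicates 1 and 2. Of the spots for miR-451-5p, 43 of 64 on sham arrays and 29 of 64 on TULP arrays were well above background.

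How low the low TULP readings were depended on how probes near the limit were counted. In TULP replicate 2 the shorter probe had a signal to error ratio of 1.69 and the longer probe one of 2.87, just short of the limit. In TULP replicate 1 the shorter probe reached 2.52, so that only the longer probe entered the sum. With both probes added whatever their call, the signal was 13.4 in TULP replicate 1 and 6.14 in TULP replicate 2. Before normalization both were still below the lowest sham signal, 14.8 in sham replicate 3. After quantile normalization of these sums, TULP replicate 1 was at 4.10 on the log2 scale. That was above sham replicates 1, 2 and 3, at 4.04, 3.95 and 3.86. TULP replicate 2, at 2.93, stayed below all sham arrays. The total stored in the file for TULP replicate 1 was 30.7, above the sum of its own probes, which is why stored totals were not used here.

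After quantile normalization between arrays, the log2 signal of miR-451-5p was 4.03, 3.95, 3.86 and 4.14 in the sham group, a mean of 4.00 ± 0.12 (SD, n = 4). In the TULP group it was 3.57, 0.96, 4.10 and 4.71, a mean of 3.34 ± 1.65 (SD, n = 4), where 0.96 is the floor given to undetected values. One TULP array was above all sham arrays and another at the floor, so the spread in the TULP group exceeded the difference between the groups. The difference, TULP minus sham, was -0.66 on the log2 scale with a standard error of 0.75 and a 95% interval from -2.41 to 1.09 (limma, Benjamini-Hochberg adjusted p = 0.597). This interval held changes of more than 2-fold in both directions, so changes of that size lay within the error of these arrays.

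TULP replicate 2 decided the direction for miR-451-5p. Without it the difference was 0.14 (limma adjusted p = 0.828), and with both probes summed it was -0.04, with an interval from -0.84 to 0.77 (limma adjusted p = 0.972). The probes themselves differed, at 0.03 for the shorter and -0.51 for the longer. With the floor at 0.1, the value of undetected miRNAs in the deposited table, the difference was -1.73. Over the 26 alternatives run, its adjusted p ranged from 0.116 to 0.995. Among these, the 75th percentile over all miRNAs only repeated the run without normalization.

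miR-486 was the stronger of the detected members relative to its errors. Its signal before normalization was 63.1, 53.4, 78.7 and 123 in the sham group and 24.0, 29.0, 31.5 and 41.0 in the TULP group. Each TULP array was below each sham array on this scale, as was so for 44 of the 151 miRNAs tested (29.1%). Of its spots, 64 of 64 on sham arrays and 61 of 64 on TULP arrays were well above background. The arrays as a whole moved the same way, since the summed signal of detected miRNAs was 21075 to 37357 in the sham group and 16787 to 19464 in the TULP group (log2 difference -0.64, exact permutation test, two-sided, p = 0.0286).

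After normalization the log2 signal of miR-486 was 6.02, 5.54, 6.02 and 6.35 in the sham group, a mean of 5.98 ± 0.33 (SD, n = 4). It was 4.74, 5.02, 5.26 and 5.74 in the TULP group, a mean of 5.19 ± 0.42 (SD, n = 4). The groups then overlapped, since sham replicate 2 was below TULP replicate 4. On this scale 0 of the members had TULP arrays wholly below the sham arrays, set against 22 of 151 miRNAs (14.6%). The difference was -0.79 with a standard error of 0.25 and an interval from -1.38 to -0.20, or 1.73-fold lower in the TULP group (limma adjusted p = 0.0498). It was the last of the miRNAs to pass 0.05, at rank 46 of 46.

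Of the 2 members tested, 1 was called at this threshold, set against 46 of 151 miRNAs tested (30.5%), and against 16.6% called lower. This share is no result about the members. With a change of more than 2-fold also asked for, 0 members were called, set against 14 of 151 (9.27%).

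The miR-486 call did not hold under each array left out. The difference stayed between -0.99 and -0.64, but its limma adjusted p passed 0.05 only without sham replicate 2 (0.0422) or without TULP replicate 4 (0.0272), and rose to as much as 0.109 without TULP replicate 2. The arrays lay on 1 slide in 2 rows. TULP replicates 1, 2 and 3 shared the first row with sham replicate 4, and the second row held the rest. With slide row as a block the miR-486 difference was -0.73 (limma adjusted p = 0.149). Within the first row it was -1.34 and within the second -0.12. For miR-451-5p the same values were -1.26 and 0.76. The part of slide row in these differences was not tested further, as each row holds 1 array of one of the groups.

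**Figure D2:**
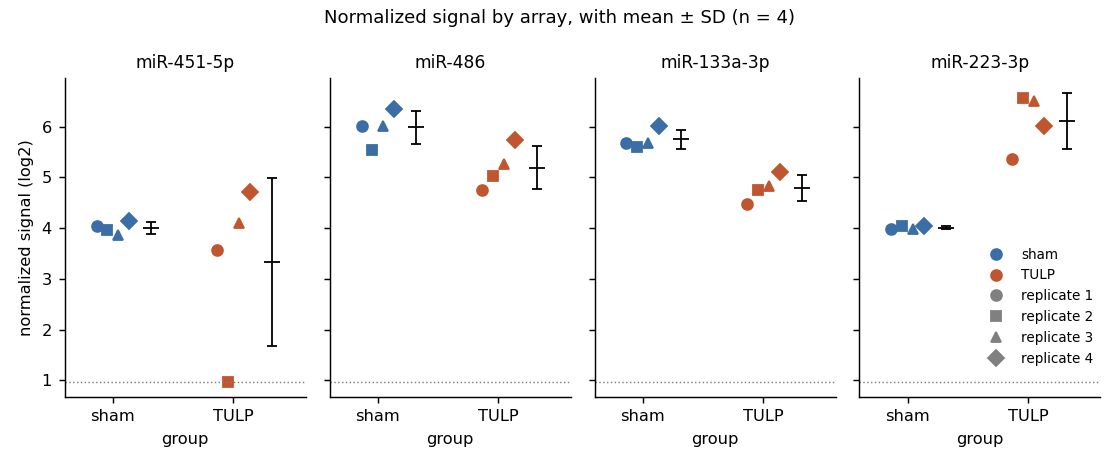
Quantile-normalized signal (y axis, log2) by group for miR-451-5p, miR-486, miR-133a-3p and miR-223-3p, with 1 point per array and, beside the points, the mean ± SD (n = 4); the dotted line is the floor of 0.96 for undetected values. The TULP arrays of miR-451-5p range from the floor to 4.71, those of miR-486 and miR-133a-3p sit mostly or wholly below the sham arrays, and those of miR-223-3p sit above them.

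miR-451-5p was also taken as a share of the summed signal of detected miRNAs, which scales each array by its own total. The share was 0.0839%, 0.0647%, 0.0507% and 0.0637% in the sham group. It was 0.0501%, 0.0866% and 0.128% in TULP replicates 1, 3 and 4, and was set at 0.0195% in TULP replicate 2, from the lowest detected signal of that array. This value is a stand-in and no bound, since the undetected probes of TULP replicate 2 read 2.23 and 3.90, which sum to more than the stand-in. The highest and the lowest share both came from the TULP group. On the log2 scale the shares differed by -0.17 (exact permutation test, two-sided, p = 0.857). With miR-21-5p left out of the sum, they differed by -0.02. That miRNA rose by 1.76 in normalized signal (limma adjusted p = 7.8e-04).

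The miR-486 share was 0.299%, 0.211%, 0.269% and 0.330% in the sham group and 0.123%, 0.166%, 0.188% and 0.235% in the TULP group. Only TULP replicate 4 exceeded any sham array. The log2 difference of -0.66 did not pass the exact permutation test (two-sided, p = 0.0571, adjusted p = 0.1 over the 7 comparisons within arrays). With 4 arrays against 4 the smallest p such a test can give is 0.0286. Leaving miR-21-5p out of the sum gave a log2 difference of -0.51 for miR-486.

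**Figure D3:**
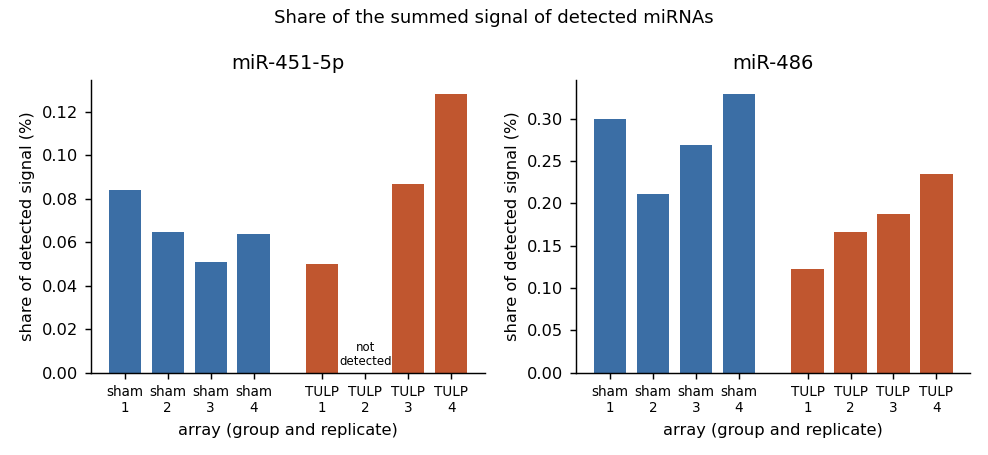
Share of the summed signal of detected miRNAs (y axis, percent, from 0) taken by miR-451-5p and by miR-486 on each array, with bars coloured by group and 1 bar per array. The miR-451-5p shares of the TULP arrays lie on both sides of the sham shares, and the miR-486 shares of 3 TULP arrays lie below those of all sham arrays.

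miR-23a-3p, a miRNA whose serum level is little affected by red cell lysis, serves in serum work as the denominator for miR-451 in tests for lysed blood. Its own normalized signal differed by 0.07 between the groups (limma adjusted p = 0.597). The ratio of miR-451-5p to miR-23a-3p within an array differed by -0.22 on the log2 scale (exact permutation test, two-sided, p = 0.8), and with both probes of miR-451-5p summed it differed by 0.11. For miR-486 the ratio to miR-23a-3p differed by -0.71 (exact permutation test, two-sided, p = 0.0571, adjusted p = 0.1). It was below the sham mean in 4 of 4 TULP arrays.

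miR-223-3p is the miRNA of neutrophils, monocytes and platelets. The ratio of miR-451-5p to miR-223-3p was lower in each TULP array than in each sham array, and differed by -2.37 on the log2 scale. This gave the smallest p the exact permutation test allows (two-sided, p = 0.0286, adjusted p = 0.1). Within the first slide row the ratio differed by -3.01 and within the second by -0.91. By itself miR-223-3p rose by 2.10 in normalized signal (limma adjusted p = 0.0031).

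miR-451-5p and miR-486 did not follow each other closely. Over the 8 arrays their normalized log2 values had a Pearson r of 0.505, given as a description. The ratio of miR-451-5p to miR-486 differed by 0.49 between the groups (exact permutation test, two-sided, p = 0.4). Without TULP replicate 2 it differed by 0.99 (exact permutation test, two-sided, p = 0.0286). With both probes summed whatever their call, and TULP replicate 2 kept, it differed by 0.81 (exact permutation test, two-sided, p = 0.0857). Whether these miRNAs changed unequally thus rests on how 1 undetected value is treated.

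Other miRNAs that are abundant in red cells, though made in most tissues, showed no common direction. Of 13 on the array, 10 were tested, 1 rose, 1 fell and 8 did not pass the test, beside 13.9% called higher and 16.6% called lower of all miRNAs tested. The median difference was 0.12, against -0.02 over all 151 miRNAs tested. miR-15b-5p, a member of the miR-15 family that restrains cell cycle genes, rose by 0.96 (limma adjusted p = 0.0032). let-7g-5p, of the let-7 family that restrains growth, fell by 0.54 (limma adjusted p = 0.0054). miR-16-5p, of the miR-15 family and abundant in red cells, differed by 0.24 (limma adjusted p = 0.153). The summed signal of the list before normalization was 1099 to 2006 on sham arrays and 977 to 1198 on TULP arrays, and miR-363-3p was not detected on any array.

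Of 7 miRNAs of white cells and platelets on the array, 6 were tested, with 3 called higher and 0 called lower, beside 13.9% and 16.6% of all miRNAs tested. The median difference was 1.45. Beside miR-223-3p, these were miR-142-3p, found throughout blood cells (2.01, limma adjusted p = 0.0163), and miR-146b-5p, which restrains inflammatory signalling (2.90, limma adjusted p = 0.0032). The other 3 did not pass the test: miR-146a-5p, which restrains inflammatory signalling too, differed by 0.39 (limma adjusted p = 0.0995), miR-155-5p of activated immune cells by 0.89 (limma adjusted p = 0.236), and miR-150-5p of mature lymphocytes by -0.59 (limma adjusted p = 0.0737), with its TULP arrays all below its sham arrays. The summed signal of the list before normalization was 61.1 to 124 on sham arrays and 144.4 to 197.4 on TULP arrays, and miR-142-5p was not detected on any array. The endothelial miR-126a-3p, from the lining of vessels, differed by 0.01 (limma adjusted p = 0.992), and miR-126a-5p was not detected on any array. In bulk tissue, fewer cells of a type cannot be told apart from less RNA per cell.

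Since miR-486 is also made in muscle, the striated muscle miRNAs are given beside it, as a list added after its values were seen. Of 8 on the array, 5 were tested and 4 fell, beside 16.6% of all miRNAs tested, with a median difference of -0.74. miR-1-3p and miR-133a-3p, which promote and restrain muscle differentiation, fell by 0.74 (limma adjusted p = 0.0201) and by 0.96 (limma adjusted p = 0.0061). miR-133a-5p fell by 0.93 (limma adjusted p = 0.0230) and miR-133b-3p fell by 0.72 (limma adjusted p = 0.0163). miR-206-3p, particular to skeletal muscle, differed by 0.25 (limma adjusted p = 0.795). On the normalized log2 scale its TULP replicates 2, 3 and 4 were at 10.56, 10.32 and 10.69, above all sham arrays. Its TULP replicate 1, at 8.71, was below all sham arrays. The summed signal of the list was 4742 to 9987 on sham arrays and 2166 to 3674 on TULP arrays before normalization, and miR-208a-3p, miR-208b-3p and miR-499-5p, of heart and slow muscle, were not detected on any array. The part of muscle RNA in the miR-486 difference was not tested.

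The pattern of miR-486 over the 8 arrays was most like that of miR-196a-5p (Pearson r 0.940), miR-378a-5p (0.939), miR-133a-3p (0.936), miR-133a-5p (0.933) and miR-1-3p (0.915), out of 148 miRNAs compared. These values are a description over arrays that share the group difference. With the group means taken out, r was 0.935 for miR-133a-3p and 0.438 for miR-451-5p. The ratio of miR-486 to miR-133a-3p within an array differed by 0.28 (exact permutation test, two-sided, p = 0.0286, adjusted p = 0.1), and was above the sham mean in 4 of 4 TULP arrays. It differed by 0.17 in normalized values (exact permutation test, two-sided, p = 0.314) and by -0.75 in the stored totals, so its direction rests on the signal used.

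**Figure D4:**
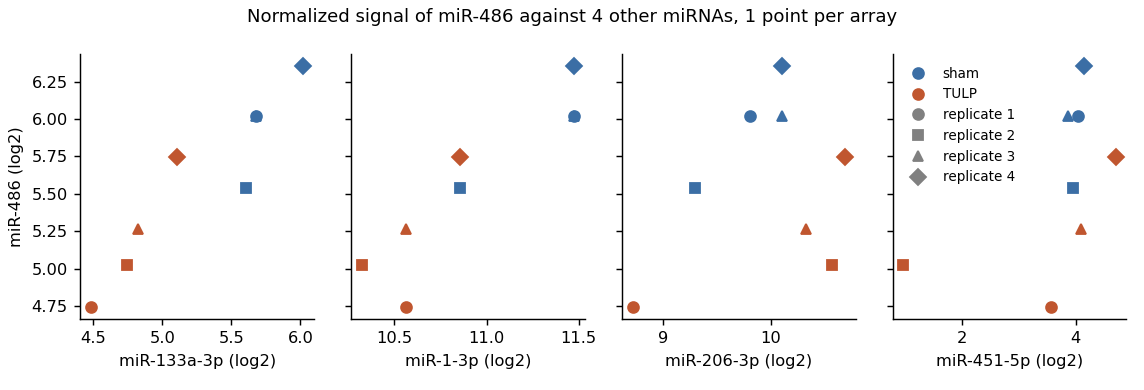
Normalized signal (log2) of miR-486 on the y axis against that of miR-133a-3p, miR-1-3p, miR-206-3p and miR-451-5p on the x axes, 1 point per array, with colour for group and shape for replicate; points of sham replicates 1 and 3 coincide or nearly so for miR-133a-3p and miR-1-3p. miR-486 rises with miR-133a-3p (r 0.936) and miR-1-3p (r 0.915), and less with miR-451-5p (r 0.505). For miR-206-3p no r was computed, and TULP replicates 2, 3 and 4 lie above all sham arrays in miR-206-3p but not in miR-486.

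For miR-451-5p the nearest patterns were those of miR-3584-5p (r 0.895), miR-151-5p (0.857), miR-352 (0.746), miR-196a-5p (0.662) and miR-3562 (0.581). The most opposite were miR-103-3p (-0.845), miR-27a-3p (-0.755) and miR-23a-3p (-0.692). These likenesses leaned on the floor value of TULP replicate 2, without which r was -0.15 for miR-3584-5p, 0.647 for miR-151-5p and -0.38 for miR-352. Of the opposite ones, r without it was -0.81 for miR-103-3p, -0.54 for miR-23a-3p and 0.411 for miR-27a-3p, which turned its sign.

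**Figure D5:**
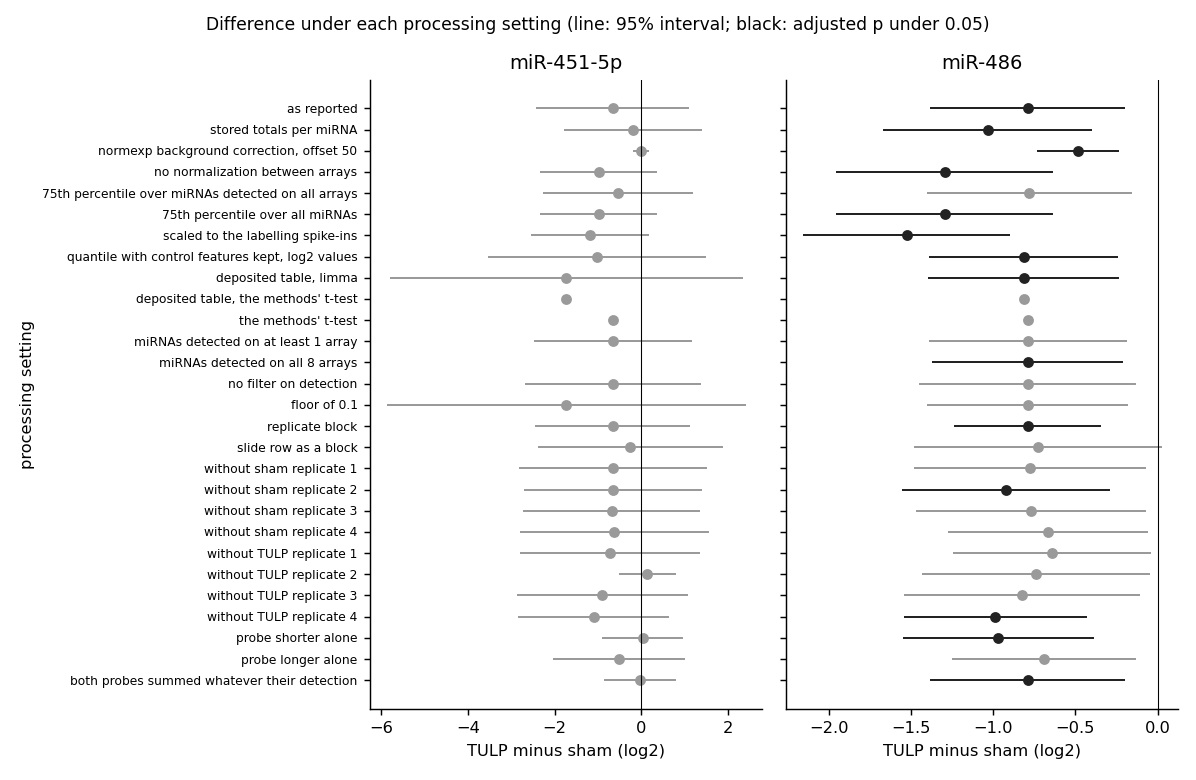
TULP minus sham difference (x axis, log2, with a different range in each panel) of miR-451-5p and miR-486 under each processing setting (y axis); points are differences, lines 95% intervals, and black marks an adjusted p under 0.05. All miR-486 points are below 0, from -1.53 to -0.49, and about as many are black as grey, whereas the miR-451-5p points run from -1.73 to 0.14 and none is black.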

How the data were processed

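The members and the lists of miRNAs were chosen with earlier results of these data known. Spot and probe values are intensities on a linear scale, which per the file headers were background subtracted by Agilent Feature Extraction 10.7.1.1 and not normalized between arrays. A second file from the authors holds quantile-normalized log2 values, with undetected miRNAs at the log2 of 0.1. Per the labels, Cy3-labelled cRNA was made with a linear amplification kit, which is not a miRNA labelling method, and how the miRNAs were labelled was not settled here. In this work, probes with a signal over 3 times the error were summed per miRNA, which matched the detection calls of the files with 0 mismatches, and 0.1 was set otherwise. Of 1191 stored totals, 352 lay above this sum. Signals were quantile normalized over 758 miRNAs, floored at 1.94 (log2 0.96) and fitted with limma 3.58.1 in R 4.3.3. Tested were 151 miRNAs detected on at least 4 arrays, with Benjamini-Hochberg adjustment over all of them. Within-array ratios and shares were compared by exact permutation over 70 labellings, with undetected values at the lowest detected signal of the array.

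The number of arrays limits the precision. Fits were checked on simulated data. Named are all members, called members of the lists, miR-16-5p, miR-23a-3p, miR-223-3p and miR-126a-3p, and the miRNAs most and least like miR-451-5p over the arrays. The rest, with the muscle list and the miRNAs most like miR-486, were named after their values were seen. RefSeq held 685 of the 758 array names.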

Additional observations from a re-analysis of the deposited data

Results flagged for a closer look

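A sample far from the others of its group was found in 6 of 42 groups of 4 arrays, where chance gives about 5%, or 2.1. None of the 6 was miR-451-5p, miR-486 or one of their ratios or shares. On the normalized log2 scale, let-7g-5p stood apart in TULP replicate 3 at 7.40, miR-23a-3p in sham replicate 4 at 8.49, miR-1-3p in sham replicate 2 at 10.86, and miR-133b-3p in sham replicate 2 at 10.56 and in TULP replicate 1 at 9.42. In these 5 groups the other arrays held 1 and the same value, as quantile normalization gives arrays where a miRNA has the same rank. miR-142-3p stood apart in TULP replicate 1 at 2.76, against 3.95 to 4.05 on the other TULP arrays.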

How the results depend on the processing

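The miR-451-5p difference of -0.66 reversed without TULP replicate 2 (range over the 8 arrays left out -1.10 to 0.14) and with the shorter probe alone (0.029). Its share reversed with stored totals (0.17), both probes summed (0.15) and within the second slide row (0.98), and ranged from -0.56 to 0.35 with arrays left out. Its ratio to miR-23a-3p reversed likewise, to 0.19, 0.11 and 1.14, with a range of -0.68 to 0.31. The miR-486 difference kept its direction in all 27 alternatives, though the 75th percentile over all miRNAs only repeated the run without normalization. Those that change only the filter, the floor or the test left it at -0.79 and could not change its direction. It lost its call in 14. Outside the arrays left out (-0.99 to -0.64) these were the 75th percentile over miRNAs detected on all arrays (-0.78), the methods' t-test on the deposited table (-0.82) and on these values (-0.79), detection on at least 1 array, no filter and the floor of 0.1 (each -0.79), the slide row block (-0.73) and the longer probe (-0.69). The ratio of miR-486 to miR-23a-3p ranged from -0.92 to -0.48, passed only without TULP replicate 4, and was 0.033 within the second slide row. The ratio of miR-486 to miR-133a-3p was -0.75 in stored totals, 0.17 in normalized values, 0.17 and 0.36 within the slide rows, and 0.20 to 0.33 with arrays left out. The ratio of miR-451-5p to miR-223-3p was -3.01 and -0.91 within the rows and -2.84 to -1.72 with arrays left out, with 4 of 8 past 0.05. The ratio of miR-451-5p to miR-486 was 0.25 to 0.99 with arrays left out. Exact permutation tests within a row cannot go below p = 0.25. The cause was not tested, except that fewer arrays or stricter filters change the number of values.

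The count of miRNAs called with over 2-fold was 14, against 1 with normexp background correction, 34 without normalization and 53 with spike-in scaling. It was 8 with detection on all arrays and 4 without a filter. It was 9 to 21 with arrays left out, and 9 without TULP replicate 3. The 75th percentile over all 758 miRNAs was the undetected value of 0.1 on each array. Scaling to it thus changed nothing and repeated the 34 of the run without normalization. Spike-in scaling moved the median of all tested miRNAs to -0.78, and the miR-486 difference to -1.53.

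The replicate numbers did not pair the samples, since r between same-numbered arrays was 0.128, -0.0968, 0.269 and -0.102 and 0 of 4 arrays matched best with their own number. With the replicate block, the miR-486 difference was -0.79 and the miR-451-5p difference -0.66, with 11 miRNAs called. Under the block the ratios of miR-451-5p to miR-223-3p (-2.37) and of miR-486 to miR-133a-3p (0.28) could not pass, as 4 pairs allow no p below 0.125.

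The planned comparisons for miR-144-3p were not run, as it was not detected on any array, and miR-451-5p has no value with detection on all 8 arrays.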
